A study of Homo sapiens with 12 samples.

Results

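Cytochrome P450 genes encode haem enzymes that add oxygen to retinoids, steroids, fatty acids and drugs. They were taken here as all autosomal protein-coding genes of the annotation whose symbol is CYP, a number, a letter and a number, which gave 56 of 19103 genes. P450 genes with other symbols, among them TBXAS1 and PTGIS, are outside this rule. The marks are H3K27me3 peaks from ChIP-seq of human SH-SY5Y neuroblastoma cells. The Tau expressing cells (WT) were compared with 231K and 232P, which are Tau-KO lines made from SH-SY5Y by CRISPR-Cas9 editing, and each of the 3 genotypes had 2 biological replicates. All cells were grown in the same medium with serum, the labels name no treatment, and the replicates A and B of the labels are called 1 and 2. The 6 input samples were not analysed here. Each Tau-KO genotype is a single edited line, so an effect of Tau and a property of that line cannot be told apart within 1 line. All peaks in both lists labelled 232P carry names that start with 231P, another Tau-KO line of the study, and the labels were followed. The Tau gene MAPT and the 1 kb around it were free of peaks in all 6 samples, and the genotypes could therefore not be checked from the marks.

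H3K27me3 is trimethylation of lysine 27 of histone 3, which the Polycomb repressive complex 2 deposits at silent genes. P450 genes of drug metabolism and of fatty acid hydroxylation arose by repeated duplication and sit in clusters of related copies, with their main activity in liver, intestine, kidney or skin. The enzymes that make steroid hormones are single genes or pairs and act in adrenal cortex and gonads. The CYP26 enzymes degrade retinoic acid, the signal that is used in culture to differentiate SH-SY5Y cells.

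Peak numbers were 285826 and 222191 in WT, 271413 and 212347 in 231K, and 147118 and 199677 in 232P, replicate 1 always given first. Their peaks covered 6.75% and 8.92% of the autosomes in WT, 6.26% and 9.17% in 231K, and 2.32% and 6.82% in 232P. The list of 232P replicate 1 therefore stood apart as the smallest and least covered. The narrowest peaks of the replicate 1 lists measured 179, 179 and 175 bp and those of the replicate 2 lists 244, 240 and 262 bp, so a technical property also separates the samples by number. The lists hold no read counts, and a missing peak means only that none passed the authors' threshold at that depth. Values are therefore set against those of all genes in the same sample.

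TSS marks were defined as peaks that reach into the window of 1 kb up- and downstream of an annotated start, whichever transcript it belongs to. Of the 56 P450 genes, 24 (42.9%) had a TSS mark in all 6 samples, beside 10.8% of all genes. No TSS mark in any sample was found for 24 (42.9%), beside 80.4% of all genes, and the other 8 were marked in some samples. In single samples, 30 and 31 P450 genes had a TSS mark in WT, 29 and 31 in 231K, and 27 and 28 in 232P, where the share of all genes was 16.2% and 16.5%, 15.0% and 16.4%, and 13.4% and 14.6%. The share in P450 genes was above that of all genes in every sample. A peak in the gene outside the TSS windows was present in all 6 samples for 29 genes (51.8%), beside 12.6% of all genes. In single samples, 29 P450 genes had such a peak in 232P replicate 1 and 32 in each of the other 5, where the share of all genes was 17.7% and 17.8% in WT, 16.7% and 17.9% in 231K, and 14.9% and 16.2% in 232P. A mark of either kind in all 6 samples was present at 32 genes (57.1%), beside 14.8% of all genes. By sample, 34 and 33 P450 genes had one in WT, 33 and 32 in 231K, and 32 and 33 in 232P, beside 20.5% and 20.5%, 19.3% and 20.5%, and 17.4% and 18.7% of all genes. P450 genes and all genes had similar median lengths, 21921 and 27877 bp, and the same median number of annotated starts, 5.

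By role of the enzymes, TSS marks in all 6 samples were found at 2 of 3 retinoic acid hydroxylases, 2 of 3 vitamin D enzymes, 10 of 18 drug-metabolising enzymes, 7 of 12 fatty acid hydroxylases and 3 of 7 enzymes of other or uncertain role. Of the 6 steroid hormone enzymes and the 7 enzymes of cholesterol and bile acid metabolism, 0 had one in all 6 samples. In groups this small a count of 0 is near the 10.8% of all genes, and differences between roles were not tested. By position, 20 of 31 genes in a P450 cluster (64.5%) and 4 of 25 outside clusters (16.0%) were marked in all 6 samples, the latter near the 10.8% of all genes. The 4 genes outside clusters were CYP26B1, CYP24A1, CYP27B1 and CYP2E1. The pairs CYP11B1 and CYP11B2, CYP1A1 and CYP1A2, and CYP26A1 and CYP26C1 were counted as clusters. The adjacent CYP2D6 and CYP2D7, both unmarked, were counted outside. Genes of a cluster can share a covered stretch, so they are not independent. The heat map of TSS windows shows these blocks.

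**Figure D1:**
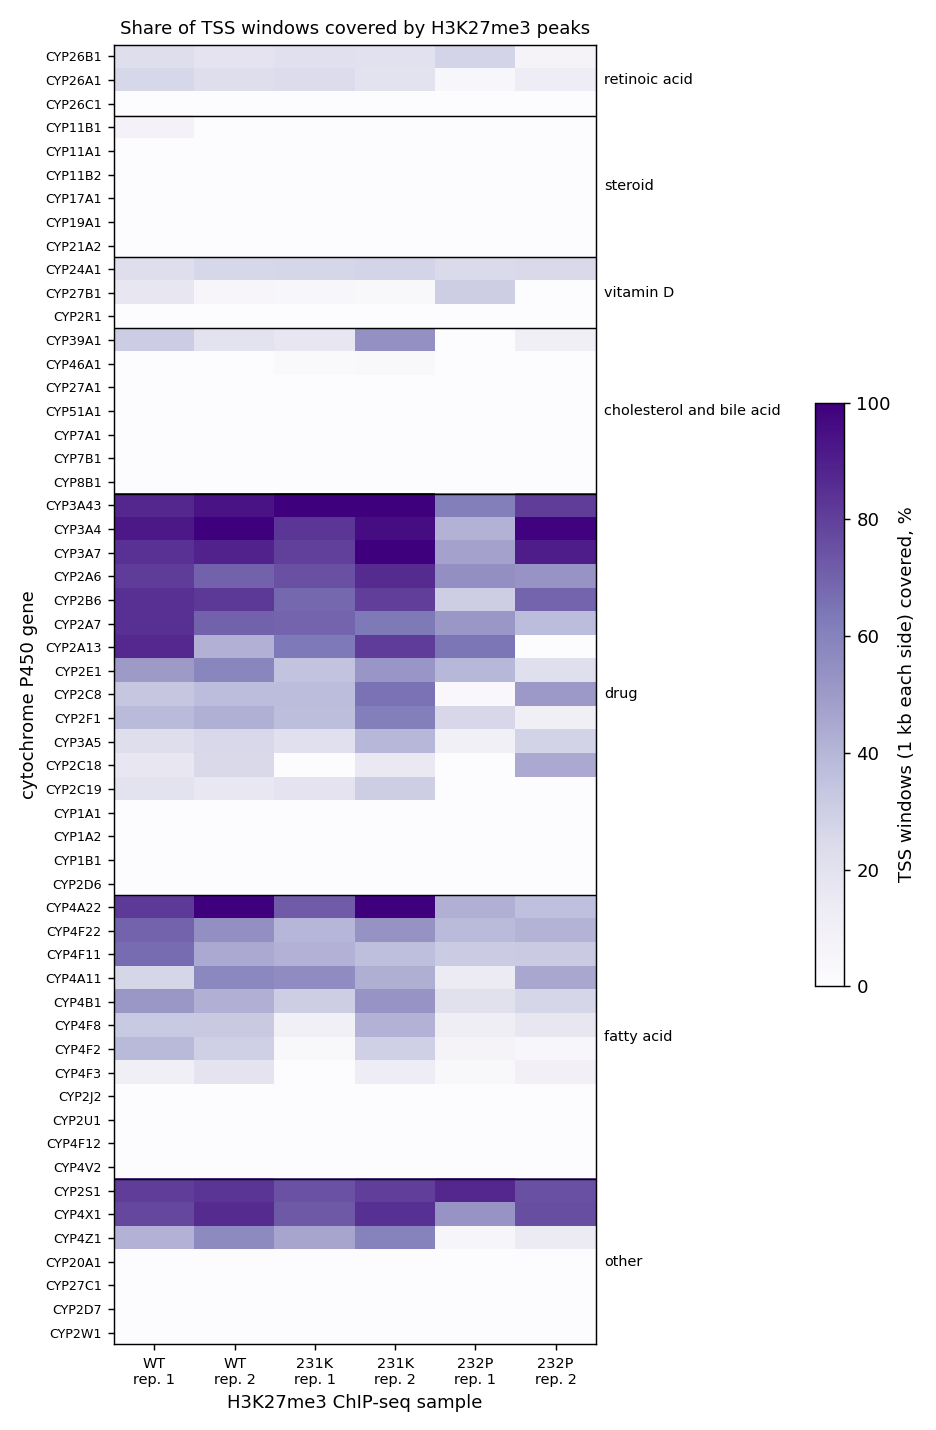
Share of the TSS windows (1 kb on each side of every annotated start) covered by H3K27me3 peaks, in %, for 55 P450 genes (rows, grouped by role) in 6 samples (columns). CYP3A4, CYP3A7, CYP3A43, CYP2A6, CYP2S1 and CYP4X1 are dark in most samples, CYP3A5, CYP26A1, CYP26B1, CYP24A1 and CYP27B1 are light but marked, CYP26C1 and CYP2R1 are blank, and the steroid genes are blank except for CYP11B1 in WT replicate 1.

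The retinoic acid hydroxylases CYP26A1, CYP26B1 and CYP26C1 inactivate their substrate, and CYP26A1 is a known target gene of retinoic acid receptors. Their RefSeq promoters (GRCh38.p14, 250 bases before to 50 bases after the start) are printed because they hold many CpG, unlike most promoters of clustered P450 genes. Capitals mark CpG dinucleotides, 32 in CYP26A1 (chr10:93073643-93073942, plus strand), 19 in CYP26B1 (chr2:72147813-72148112, minus strand) and 29 in CYP26C1 (chr10:93060548-93060847, plus strand).
CYP26A1: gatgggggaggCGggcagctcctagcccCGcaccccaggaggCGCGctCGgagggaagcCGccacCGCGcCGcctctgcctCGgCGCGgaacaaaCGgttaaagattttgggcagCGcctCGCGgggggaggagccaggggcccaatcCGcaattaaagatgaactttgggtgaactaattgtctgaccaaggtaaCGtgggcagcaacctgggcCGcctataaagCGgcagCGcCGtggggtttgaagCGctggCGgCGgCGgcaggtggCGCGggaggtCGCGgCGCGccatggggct
CYP26B1: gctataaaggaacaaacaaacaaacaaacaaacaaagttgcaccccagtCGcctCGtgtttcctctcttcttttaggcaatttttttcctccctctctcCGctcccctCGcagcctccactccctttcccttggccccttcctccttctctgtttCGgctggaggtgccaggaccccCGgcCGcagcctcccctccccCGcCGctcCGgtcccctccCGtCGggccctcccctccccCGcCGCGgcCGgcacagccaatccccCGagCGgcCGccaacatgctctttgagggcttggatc
CYP26C1: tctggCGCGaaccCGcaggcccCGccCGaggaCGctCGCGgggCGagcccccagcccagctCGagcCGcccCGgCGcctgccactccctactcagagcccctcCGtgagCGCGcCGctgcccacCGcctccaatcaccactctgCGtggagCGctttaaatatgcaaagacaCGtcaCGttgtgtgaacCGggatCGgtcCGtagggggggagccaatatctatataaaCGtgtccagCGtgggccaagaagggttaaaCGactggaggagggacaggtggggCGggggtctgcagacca

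The CYP26A1 promoter holds the letters AGTTCA on the minus strand, at positions 161 and 172 counted from the left of the printed bases. The copies form a direct repeat with 5 bases between them. Searched on both strands with the half-sites AGGTCA or GGTTCA allowed beside the letters named above, all of them motifs of nuclear receptors such as those of retinoic acid, such a repeat was found in 1 of 39 P450 promoters and in 8 of 14616 promoters of all genes (0.0547%). At least 1 half-site was present in 21 of the 39 P450 promoters and in 23.9% of all promoters. Each repeat also counts as a pair of half-sites, and a match of letters is not a measured binding site.

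CYP26A1 (chr10:93073475-93077885) had a TSS mark in all 6 samples, but a narrow one. Peaks covered 1280 and 1096 bp of its TSS windows in WT, 1155 and 940 bp in 231K, and 197 and 645 bp in 232P. Both 232P samples were below the other 4. Of all genes covered in at least 1 sample, 36.0% had both 232P samples below both WT samples. The highest fold enrichment at these windows was 4.76 and 4.20 in WT, 5.33 and 4.17 in 231K, and 3.48 and 3.09 in 232P, where fold enrichment is the deposited ratio of reads at the peak summit to the local background. No peak covered the canonical start. The upstream peak nearest to the start ended at position -387 and -1042 in WT, -402 in 231K replicate 1, and -805 and -996 in 232P. In 231K replicate 2 no upstream peak was listed, and the mark came from peaks downstream of the start, at annotated starts inside the gene. None of these peaks reached the printed promoter.

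CYP26B1 (chr2:72129238-72147862) had the stronger mark. The highest fold at its TSS windows was 5.56 and 6.30 in WT, 8.20 and 6.47 in 231K, and 6.21 and 6.62 in 232P. A short peak ended upstream of the start at position -213, -211, -180, -143, -96 and -233 in the samples in that order, so that it reached into the first bases of the printed promoter, and a wider peak or pair of peaks lay inside the first 2.5 kb of the gene in every sample. The wider peak measured 1498 bp in WT replicate 2, 1564 and 1464 bp in 231K and 1567 bp in 232P replicate 1, and was intronic. In WT replicate 1 and 232P replicate 2 the same stretch was listed as separate shorter peaks. Covered TSS length was 1199, 993, 1111, 1068, 1475 and 374 bp, so that 232P replicate 1 was the highest and 232P replicate 2 the lowest.

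CYP26C1 (chr10:93060798-93069540) lies next to CYP26A1 and differed from both in position of the mark. It had no TSS mark in any sample but a gene-body mark in all 6. The widest peak there measured 1059 and 1026 bp in WT, 604 and 922 bp in 231K, and 344 and 1222 bp in 232P, was intronic, and started between 5909 and 6860 bp downstream of the start. Its fold was 4.26 and 5.46 in WT, 3.86 and 5.84 in 231K, and 3.80 and 6.18 in 232P. The gene before it, EXOC6, had no peak in any sample. The tracks of single genes show that in all 3 CYP26 genes the canonical start itself was outside the peaks.

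**Figure D2:**
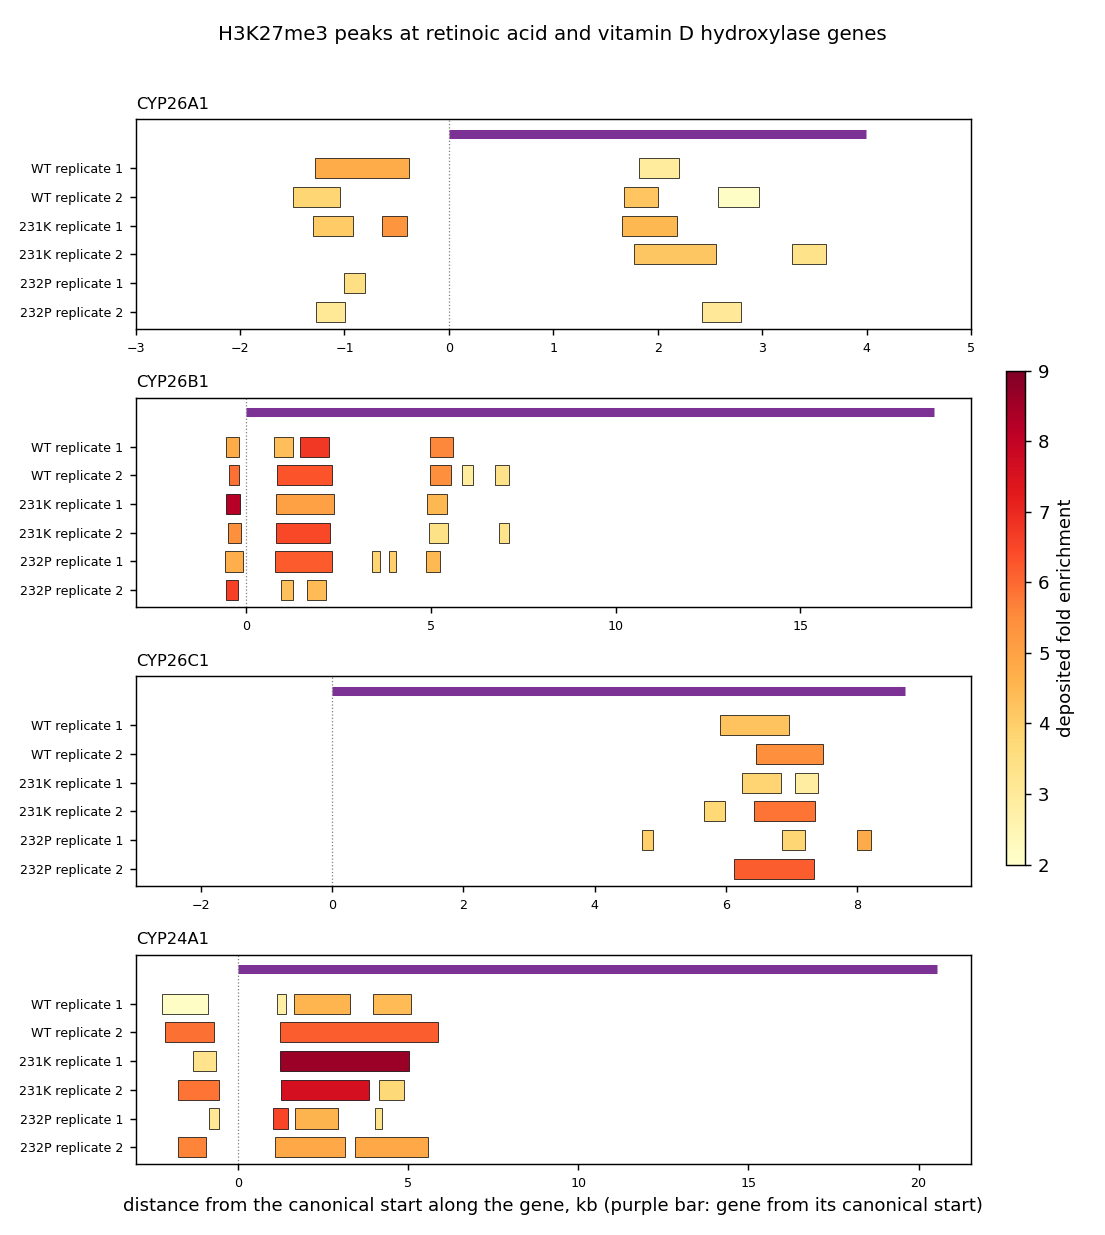
Position of each H3K27me3 peak (bars) along CYP26A1, CYP26B1, CYP26C1 and CYP24A1 in kb from the canonical start, 1 row per sample, with colour giving the deposited fold enrichment. Peaks flank the starts of CYP26A1, CYP26B1 and CYP24A1 in most samples, while those of CYP26C1 lie in the last part of the gene.

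Of 19 other genes of retinoid supply and signalling, 3 had a TSS mark in all 6 samples (15.8%, beside 10.8% of all genes) and 13 in none (68.4%, beside 80.4%), which is near the background. RBP4 was marked in 5 samples, RDH10 in 3 and DHRS3 in 1. The genes marked in all 6 were LRAT, which esterifies retinol, ALDH1A1, which makes retinoic acid, and RXRG, a retinoid X receptor. Their covered TSS lengths were longer than those of CYP26A1 in every sample. ALDH1A1 had 4030 and 5500 bp in WT, 4394 and 6144 bp in 231K, and 2181 and 3444 bp in 232P. The receptors RARA, RARB, RARG, RXRA and RXRB, the synthesis genes ALDH1A2 and ALDH1A3 and the binding proteins CRABP1 and CRABP2 had no TSS mark in any sample.

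Of the vitamin D enzymes, CYP24A1, which degrades vitamin D hormone, and CYP27B1, which makes it, were marked in all 6 samples. CYP2R1, which adds the first hydroxyl group to vitamin D, had no TSS or gene-body mark, and the nearest peak lay 78672 to 81023 bp away. The highest fold at CYP24A1 (chr20:54153446-54173986) was 4.57 and 6.17 in WT, 8.61 and 7.62 in 231K, and 6.51 and 5.62 in 232P. Both 231K samples were above the other 4 in fold, and the share of all genes with this pattern was not counted. As at CYP26B1, peaks lay on both sides of the canonical start and none covered it, and the widest reached 4652 bp in WT replicate 2. Its covered TSS length varied little, with 1760 and 2123 bp in WT, 2154 and 2221 bp in 231K, and 2006 and 2016 bp in 232P. Both 231K samples were above both WT samples in length as well, which held for 6.81% of all genes covered in at least 1 sample. CYP27B1 (chr12:57762334-57768986) was less stable, with 901, 266, 225, 166, 1613 and 11 bp in the same order. Its TSS mark in 232P replicate 2 thus rests on 11 bp.

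Among the steroid hormone enzymes, CYP11A1, which starts steroid synthesis, CYP17A1, CYP21A2 and CYP11B2 of the adrenal cortex and the aromatase CYP19A1 had no peak at a TSS or in the gene in any of the 6 samples. The sixth enzyme, CYP11B1, had 1 peak of 311 bp at its TSS in WT replicate 1, with a fold of 2.58 and a -log10 q of 1.28, and none in the other 5. The nearest peak lay 330518 to 333892 bp from CYP11A1 in 5 samples and 64398 bp in 231K replicate 1, 107633 to 108538 bp from CYP19A1 and 590066 to 603121 bp from CYP17A1. For CYP21A2 the distance was 40649 to 48271 bp, and its value is uncertain, since it has a near-identical pseudogene copy and the handling of multiply mapped reads is not given in the sources used here. Of 14 other steroid genes, 5 had a TSS mark in all 6 samples (35.7%, beside 10.8% of all genes), namely HSD3B1, HSD3B2, HSD17B2, SRD5A2 and SULT2A1, and 8 had none in any sample (57.1%, beside 80.4%). HSD17B2, which oxidises sex steroids, was covered over 5559 and 6459 bp in WT, 5020 and 6640 bp in 231K, and 3862 and 5116 bp in 232P. STAR, which brings cholesterol into the mitochondrion, and the electron donors FDX1 and FDXR were unmarked.

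In cholesterol and bile acid metabolism, CYP7A1, the rate-limiting enzyme of bile acid synthesis, CYP7B1, CYP8B1, CYP27A1 and CYP51A1, which acts in cholesterol synthesis, had no mark at a TSS or in the gene. CYP39A1, an oxysterol hydroxylase, was covered over 1860 and 1160 bp of its TSS windows in WT, 1024 and 3253 bp in 231K, and 0 and 645 bp in 232P. The samples of 231K lay on both sides of WT, and 232P was lower than all others. Both 232P samples were below both WT samples for 36.0% of all genes covered in at least 1 sample. CYP46A1, which turns over cholesterol in neurons, was covered over 0 and 14 bp in WT, 172 and 260 bp in 231K and 0 bp in both 232P samples. Both 231K samples were thus above the other 4, while 6.81% of all genes covered in at least 1 sample had both above both WT samples. The mark lay at the edge of the TSS windows, since its peaks began 1147 to 1393 bp downstream of the canonical start in these 3 samples, and 232P replicate 2 had a peak at 1551 bp.

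The 18 drug-metabolising enzymes held both extremes of the family. CYP3A4, which metabolises a large share of drugs in liver, and CYP1A2, a liver enzyme induced through the AHR receptor, have promoters that are equally poor in CpG, and both are printed because their marks differed. CYP3A4 (chr7:99784135-99784434, minus strand) has 0 CpG and CYP1A2 (chr15:74748595-74748894, plus strand) has 1, again in capitals.
CYP3A4: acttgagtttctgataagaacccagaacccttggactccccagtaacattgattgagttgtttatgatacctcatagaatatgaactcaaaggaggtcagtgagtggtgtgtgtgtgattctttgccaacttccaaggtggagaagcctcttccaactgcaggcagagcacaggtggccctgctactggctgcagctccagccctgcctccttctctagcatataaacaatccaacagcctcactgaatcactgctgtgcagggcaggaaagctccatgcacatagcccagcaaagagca
CYP1A2: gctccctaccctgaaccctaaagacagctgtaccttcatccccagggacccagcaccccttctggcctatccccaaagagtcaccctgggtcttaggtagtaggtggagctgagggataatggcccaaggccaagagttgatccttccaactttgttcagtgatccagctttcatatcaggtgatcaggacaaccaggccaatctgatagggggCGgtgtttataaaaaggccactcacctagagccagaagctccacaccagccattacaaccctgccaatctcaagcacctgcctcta

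CYP3A4 was covered over 81.3% and 97.5% of its length in WT, 77.6% and 97.0% in 231K, and 27.9% and 88.3% in 232P. At its TSS the widest peak reached 4337 and 21710 bp in WT, 5292 and 22913 bp in 231K, and 1123 and 9284 bp in 232P, with folds of 7.0, 8.10, 6.81, 9.22, 4.91 and 6.93. CYP1A2 and its neighbour CYP1A1 had no peak at all in any sample, and the nearest one to CYP1A2 lay 38344 to 47369 bp away. CYP1B1 and CYP2D6, with the adjacent copy CYP2D7, were unmarked as well, with the nearest peak of CYP1B1 1263938 to 1278483 bp away.

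The CYP3A cluster (chr7:99648194-99866093) was covered over 62.3% and 72.1% in WT, 59.3% and 75.3% in 231K, and 29.1% and 63.6% in 232P. These shares are 8.08 to 12.5 times the autosomal share of the same samples. CYP3A43 had the highest median coverage of the family, 91.1% over the 6 samples, and within the cluster CYP3A4 had 84.8% and CYP3A7, the fetal form, 64.9%. CYP3A43 was not the most covered in WT replicate 2, where CYP3A4 had 97.5% and CYP3A43 94.3%, nor in 232P replicate 1, where CYP2A13 had 73.3% and CYP3A43 53.2%. CYP3A5, at the edge of the cluster, had a TSS mark in all 6 samples but a gene coverage of only 1.62% to 14.2%. The local background under the CYP3A peaks, computed from the deposited fold and p, had a median of 2.28 and 1.66 reads in WT, 2.30 and 1.88 in 231K, and 1.74 and 1.71 in 232P. Over the TSS peaks of all P450 genes it was 1.64 and 1.38, 1.44 and 1.40, and 1.09 and 1.27. It was therefore higher at CYP3A in every sample, and its part in the result was not tested.

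The CYP2ABFS cluster (chr19:40843541-41207539) holds the nicotine hydroxylase CYP2A6, its copies CYP2A7 and CYP2A13, CYP2B6, CYP2F1 and CYP2S1. It was covered over 66.7% and 68.8% in WT, 62.8% and 75.6% in 231K, and 35.8% and 49.5% in 232P. Both 232P samples were below the other 4 in these shares, but not relative to the autosomal share of the same sample, which was exceeded 9.88 and 7.71 times in WT, 10.0 and 8.25 times in 231K, and 15.5 and 7.26 times in 232P. All 6 genes had a gene-body mark in all samples, and 5 a TSS mark in all, the exception being CYP2A13 in 232P replicate 2. CYP2S1, an extrahepatic enzyme, had a highest TSS fold of 9.10 and 7.57 in WT, 10.7 and 10.0 in 231K, and 8.95 and 7.06 in 232P. It ranked first in the family in each replicate 1 list, whereas CYP3A43 was higher in each replicate 2 list, with 9.76, 10.4 and 7.43. Its covered TSS length was steady, between 3381 and 3948 bp. CYP2A6, CYP2A7 and CYP2A13 are near-identical copies and their values are uncertain for the same reason, as are those among the CYP3A genes and at CYP2D6 and CYP2D7.

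The CYP2C cluster (chr10:94683729-95069497) was of another kind. Only 3.29% to 16.1% of it was covered, which is 1.42 to 1.95 times the autosomal share. Of its genes, CYP2C8 had a TSS mark in all 6 samples. CYP2C19 had 783 and 639 bp in WT, 756 and 1218 bp in 231K and 0 bp in both 232P samples, which do not overlap with the other 4. CYP2C18 was without a TSS mark in 231K replicate 1 and 232P replicate 1. All 4 genes of the cluster had a gene-body mark in all 6 samples. CYP2E1 oxidises ethanol and lies outside the clusters. Peaks covered 60.5% and 63.1% of its length in WT, 39.7% and 56.0% in 231K, and 34.8% and 30.8% in 232P. The 4 Tau-KO samples were below both WT samples in this share, and how many of all genes show this was not counted. In covered TSS length Tau-KO and WT overlapped, with 5232 and 6151 bp in WT and 5439 bp in 231K replicate 2.

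Of 13 regulators and partners of drug metabolism, 3 had a TSS mark in all 6 samples (23.1%, beside 10.8% of all genes) and 10 in none (76.9%, beside 80.4%). Among the marked genes were AHR and UGT2B7. AHR, the receptor that induces CYP1A1 and CYP1A2, was covered over 5740 and 8899 bp in WT, 7167 and 8459 bp in 231K, and 2635 and 7961 bp in 232P. The receptors NR1I2 and NR1I3, the liver factor HNF4A and the electron donor POR had no TSS mark. Among the genes that mark liver, ALB, SERPINA1 and FGB had a TSS mark in all 6 samples and APOA1 and TTR in none. Of the 3 adrenal cortex genes, MC2R was marked in all 6, and STAR and NR5A1 in none. Of the 7 genes of the noradrenergic identity of SH-SY5Y cells, 0 had a TSS mark in all 6 samples, and TH, DBH, PHOX2A, HAND2, GATA3 and ISL1 had none in any. Peaks do not measure expression, and no expression values were used here.

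Most fatty acid hydroxylases lie in CYP4 clusters. The CYP4ABXZ cluster (chr1:46757838-47149727) was covered over 40.0% and 46.2% in WT, 39.6% and 54.1% in 231K, and 13.7% and 35.3% in 232P, and all 5 of its genes had a TSS mark in all 6 samples. CYP4X1, expressed in brain, was the most covered, with 70.5% and 90.1% in WT, 71.8% and 93.3% in 231K, and 30.8% and 75.1% in 232P. CYP4A11 and CYP4A22, near-identical omega-hydroxylases, had medians of 52.6% and 56.5%, and CYP4B1 and CYP4Z1 of 34.4% and 30.4%. For all 5 genes 232P replicate 1 was the least covered sample. Relative to the autosomal share, the cluster stood at 5.89 times in that sample, within the range of 5.17 to 6.33 times over the 6 samples. The CYP4F cluster (chr19:15508525-15934867) was covered over 16.6% to 43.5%. CYP4F22, an enzyme of the skin barrier, had the highest median there, 61.1%, and CYP4F11, CYP4F2 and CYP4F8 were also marked in all 6 samples. CYP4F3 was marked in 5, and CYP4F12 had no TSS mark and at most 8.18% of its length covered. The remaining fatty acid genes CYP2J2, CYP2U1 and CYP4V2, which are single genes, had no mark.

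Neighbours of the clusters were covered in part. Before the CYP3A cluster, ZSCAN25 at 15786 bp was free of peaks in all 6 samples, while TMEM225B beyond it had 12.8% to 34.4%. After it, OR2AE1, TRIM4, GJC3 and AZGP1 were covered, with medians of 100.0%, 61.5%, 85.3% and 84.4%, and ZKSCAN1 at 149479 bp was free. Beside the CYP2ABFS cluster, EGLN2 at 35107 bp had no peak, whereas AXL at 11684 bp on the other side had a median of 77.7% and HNRNPUL1 at 54957 bp had 0. At the CYP4ABXZ cluster, EFCAB14 and PDZK1IP1 were free on either side, and TAL1 at 66563 bp was covered over 28.5% to 46.8%. Beside the CYP2C cluster HELLS and ACSM6 had no peak, and PDLIM1 at 168075 bp was covered over 0.584% in 1 sample. Before the CYP4F cluster, PGLYRP2 and RASAL3 had medians of 30.2% and 31.9%, and WIZ beyond them had no peak. Within it the olfactory receptor genes OR10H5 and OR10H1 had medians of 41.9% and 44.9%, and after it OR10H4 was covered in 3 of 6 samples and HSH2D at 199161 bp over 9.56% to 25.2%. At CYP3A, CYP2ABFS and CYP4F the covered stretches thus went on past the P450 genes. The profiles across clusters show these edges.

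**Figure D3:**
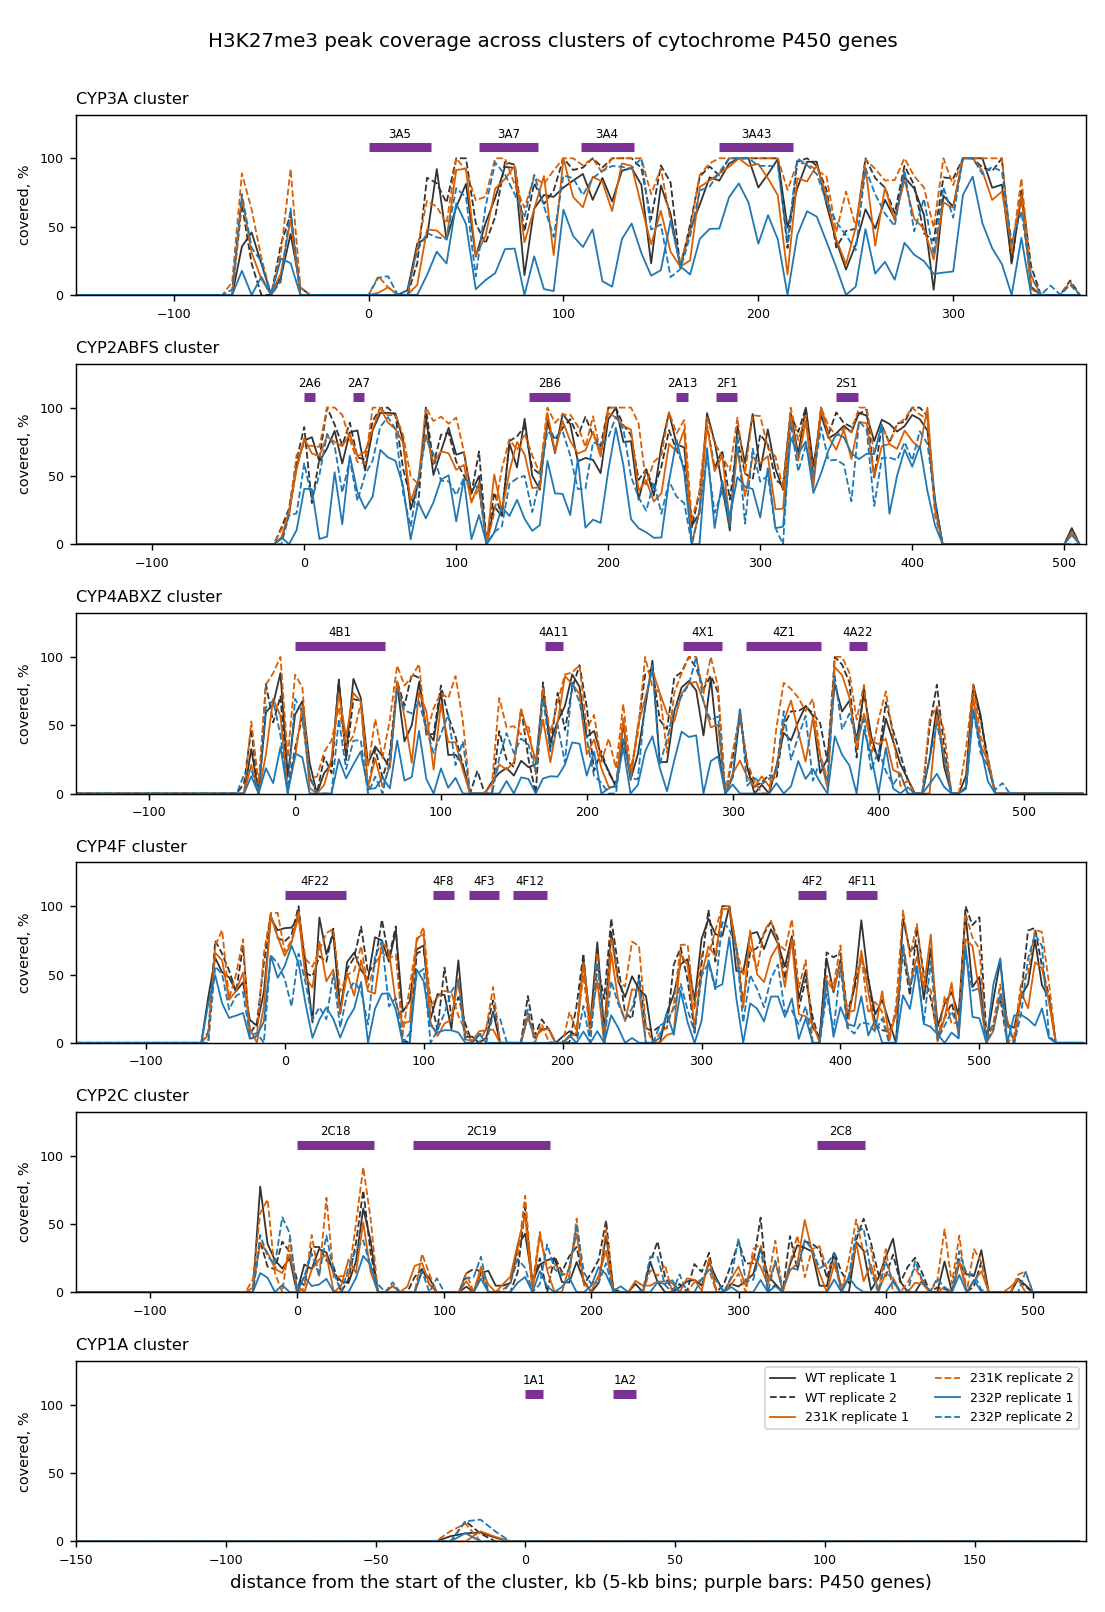
Share of each 5-kb bin covered by H3K27me3 peaks, in %, against distance from the start of the cluster in kb, for 6 clusters with 150 kb on each side. Lines are the 6 samples (solid for replicate 1, dashed for replicate 2) and purple bars the P450 genes. Coverage is high from CYP3A7 past CYP3A43 and over the CYP2ABFS cluster, patchy over CYP4ABXZ and CYP4F, low over CYP2C, and absent at CYP1A1 and CYP1A2.

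The set of RefSeq promoter sequences used here held 39 of the 56 genes, and a missing entry describes this set only. Among the genes without an entry were CYP4A11, CYP4A22, CYP1B1, CYP8B1, CYP7A1, CYP7B1, CYP11B1, CYP11B2, CYP2C18, CYP27B1, CYP46A1, CYP4F12, CYP2F1, CYP24A1, CYP2D6 and CYP2D7. The median was 5 CpG in the 300 bases, beside 24 over 14616 promoters of all genes. In the clusters other than CYP26 it was 2 (n = 21), and outside clusters 17.5 (n = 16). The median of drug-metabolising enzymes was 2 (n = 13), of steroid enzymes 4 (n = 4) and of the CYP26 genes 29 (n = 3). Over all genes, those with a TSS mark in all 6 samples had a median of 8 CpG and those with none 25. Of the former, 46.0% had 10 or more CpG, beside 81.4% of the latter, so many marked promoters were not poor in CpG. P450 genes followed the same order, with a median of 2 CpG in the 19 marked genes and 15 in the 16 unmarked. CYP1A2 and the 4 steroid enzymes with an entry had fewer than 10 CpG and no TSS mark in any sample, whereas CYP2S1 was covered with 29 CpG and CYP4F22 with 21, the latter below the median of all genes.

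**Figure D4:**
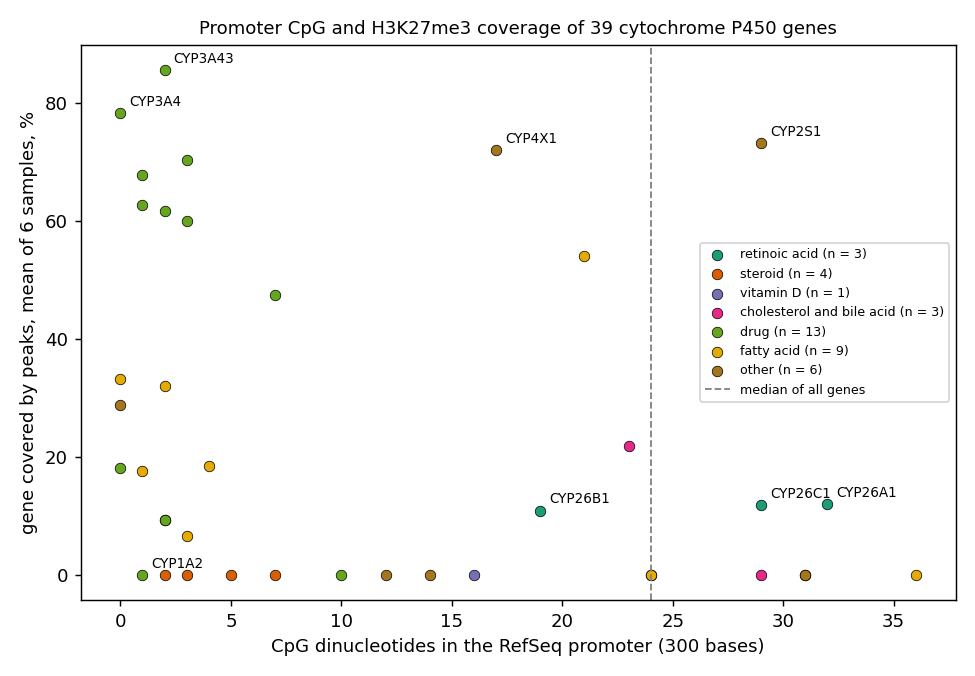
Number of CpG dinucleotides in the 300-base RefSeq promoter (x axis) against the share of the gene covered by H3K27me3 peaks, mean of 6 samples in % (y axis), for 39 P450 genes coloured by role. The dashed line is the median of all genes, 24, and the most covered genes sit to its left except CYP2S1.

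The question of the design was whether H3K27me3 differs in Tau-KO cells. Both WT samples had TSS marks at 29 P450 genes. Of these, 0 were free of the mark in 231K (2.13% of all such genes) and 1, CYP2C19, in 232P (5.42%), where a loss or gain had to be seen in both samples of a line. Of 24 P450 genes free of TSS marks in WT, 0 gained one in 231K (0.159% of all such genes) or in 232P (0.0765%). In both lines at once, 0 P450 genes lost a mark (0.957%) and 0 gained one (0.00638%). The loss at CYP2C19 depends on the starts and the window used, since windows of 2.5 kb, or the start of the gene record alone, gave 0 lost marks in 232P.

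The covered TSS length was compared by limma on log2(covered bp + 100) over 3743 genes, 32 of them P450 genes. The study instead tested normalized counts over its marks, and reported marks past an adjusted p of 0.05 in each line, most of them reduced. Covered TSS length is another measure and does not repeat that test. No P450 gene and no other gene passed an adjusted p of 0.05 in 231K, in 232P or in both lines together against WT (0% of genes in each direction). The unadjusted p was under 0.05 for 77, 297 and 155 genes in these comparisons, and for 1, 4 and 1 P450 genes. In 231K this was CYP46A1, higher by 1.55 ± 0.36 (log2, SE), limma adjusted p = 0.845. In 232P they were CYP2C19 with -3.01 ± 0.39, CYP4Z1 with -2.14 ± 0.52, CYP26A1 with -1.45 ± 0.55 and CYP4A22 with -1.11 ± 0.38, with limma adjusted p from 0.125 to 0.601. Over both lines CYP2C19 had -1.31 ± 0.34, with a limma adjusted p of 0.741. Of the retinoid, steroid, xenobiotic, noradrenergic, liver and adrenal cortex lists, 0 genes passed in any comparison, with a smallest limma adjusted p of 0.601. These comparisons share the WT samples. Without 232P replicate 2, CYP26A1 passed in 232P with -2.11 and a limma adjusted p of 0.0470, as one of 261 genes called of 3743. That fit rests on the smallest list alone and assumes that it varies like the other groups. Without 232P replicate 1 instead, CYP26A1 had -0.79 with a limma adjusted p of 0.355.

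The median of P450 genes lay on the same side of 0 as that of all genes. Their median log2 difference was -0.06 in 231K, beside -0.07 over all genes tested, and -0.78 in 232P, beside -0.64. In 232P 30 of 32 P450 genes were below 0, as were 3063 of all 3743 genes (81.8%). After quantile normalization the 232P medians were -0.18 and -0.01, with 21 of 32 P450 genes and 1897 of all genes (50.7%) below 0. Within replicate 1 the median of P450 genes in 232P was -0.85, beside -0.67 over all genes, and within replicate 2 it was -0.43, beside -0.31. Complete separation was counted as well. Both 232P samples were below both WT samples for 18 P450 genes (56.2%), beside 36.0% of all genes, and for 231K this held for 8 (25%), beside 16.4%. Both 231K samples were above both WT samples for 4, CYP3A43, CYP2C8, CYP46A1 and CYP24A1 (12.5%), beside 6.81%, and 0 were above in 232P, beside 0.989%. All 4 Tau-KO samples were below both WT samples for CYP4F22, CYP4F2, CYP4F11, CYP2A7 and CYP2B6 (15.6%), beside 10.7%, and all 4 above for none, beside 0.160%. The small list of 232P replicate 1 moves with the lower values of 232P, and its part in them was not tested beyond leaving it out, which gave a median of -0.66 for P450 genes and -0.30 for all genes. The SE of a P450 gene in 1 line against WT ran from 0.34 to 1.40, with a median of 0.52 on the log2 scale.

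**Figure D5:**
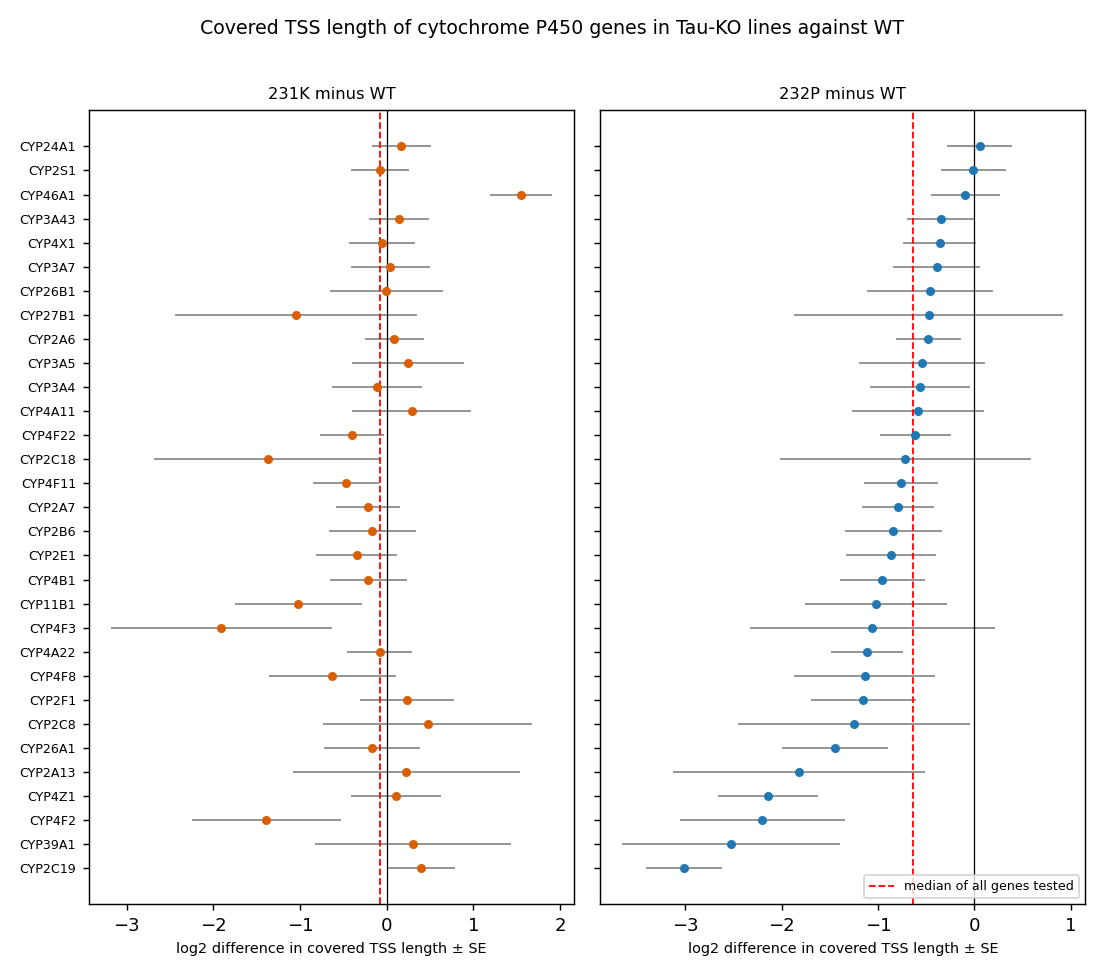
Log2 difference in covered TSS length from WT with its SE (limma, 2 samples per genotype) for 31 P450 genes in 231K (left) and 232P (right), ordered by the 232P value. The red dashed line is the median of all genes tested. Points of 231K scatter around 0, and 30 of 31 points of 232P lie below it, as do 81.8% of all genes tested.

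Peak strength was compared separately. For the 24 genes with a TSS peak in all 6 samples, the highest fold at the TSS was compared between 4 Tau-KO and 2 WT samples by an exact permutation test, two-sided, whose smallest possible p is 0.0667. The design therefore could not reach 0.05 for any gene. The test also treats the 4 Tau-KO samples as alike, although they are 2 replicates of each of 2 lines, and their SD holds both kinds of spread. The mean was lower in Tau-KO for 13 genes and higher for 11. The smallest p was reached by CYP4F11, with 4.97 ± 0.39 (SD, n = 4) in Tau-KO and 5.91 ± 0.63 (SD, n = 2) in WT (exact permutation p = 0.0667, adjusted 0.889). CYP4F11 and CYP2E1 were the 2 genes whose Tau-KO values were all below WT, beside 4.70% of all genes with a TSS peak in all 6 samples, and for 0 genes they were all above, beside 2.23%. These counts depend on single samples. Without 232P replicate 1 the mean was lower in Tau-KO for 10 genes and higher for 14. Without 231K replicate 2 it was lower for 16 and higher for 8. With 1 Tau-KO sample left out, the remaining Tau-KO values were all below WT for 2 to 6 of the 24 genes and all above for 0 to 3. The 24 genes had a median fold of 6.26 over samples, and the 2063 such genes of the whole annotation one of 5.98. With peaks of a -log10 q of at least 5 only, TSS marks in all 6 samples were left at 7 P450 genes (12.5%), namely CYP4X1, CYP26B1, CYP2E1, CYP2A7, CYP2B6, CYP2S1 and CYP24A1, beside 2.87% of all genes. With each list shortened to its 147118 strongest peaks they were left at 21 (37.5%), beside 9.63%.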

How the data were processed

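H3K27me3 ChIP-seq peak lists of 6 samples were analysed. According to the study's methods, reads were trimmed with trimmomatic and mapped to hg38 with BWA, and peaks were called per sample with MACS version 2. The methods name its broadPeak setting, while the lists hold the 10 narrowPeak columns. The q threshold, fragment length, duplicate handling and control library are not given in the sources used here. The deposited columns are a score (10 times the -log10 q), the fold enrichment as a ratio at the summit over local background with 1 read added to each, and the -log10 p and -log10 q. They carry no scaling between samples and no depth. Peak heights and local backgrounds were recovered from the deposited fold and -log10 p for 1894 of 1894 P450 peaks, within 0.001 of the -log10 p.

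Peaks were overlapped by at least 1 bp with GENCODE release 44 genes, using 1 kb on each side of every annotated start. Covered TSS length was compared with limma 3.58.1 (R 4.3.3, pseudocount 100 bp, Benjamini-Hochberg over 3743 genes covered in at least 1 sample), and fold enrichment by exact permutation tests in Python 3.11.15 with scipy 1.17.1. Same-numbered samples deviated together over 3743 genes, with correlations of 0.148, 0.243 and 0.147, so the replicate number was also fitted as a block. The scripts were tested on simulated data. Alternatives were a -log10 q of at least 5, a q under 0.05, an equal number of peaks, a 2.5 kb window, the gene record's start only, an overlap of 200 bp, a pseudocount of 1000 bp, no filter, quantile normalization and each sample left out. The members and lists were chosen with earlier results of these data known. Genes named were fixed by rule (the retinoic acid, steroid and vitamin D enzymes, 6 drug enzymes, and genes marked in all 6 samples or with states differing between genotypes), and others were added to account for the members. A few genes are counted but not reported by name here. The limma p-values measure the spread between 2 biological replicates per line. Those of the permutation test pool both Tau-KO lines, so differences between the lines enter them as well.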

Additional observations from a re-analysis of the deposited data

Results flagged for a closer look

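CYP3A43 was singled out because the samples of the 2 Tau-KO lines lay on opposite sides of WT in covered TSS length. Both 231K samples, with 4105 bp each, the full length of the windows, were above both WT samples (3579 and 3847 bp), and both 232P samples (2524 and 3306 bp) were below them. The log2 difference of 232P from 231K was -0.49, with a limma adjusted p of 0.670, so that the difference between the lines did not pass the test. The log2 difference of 232P from WT was -0.35, smaller in size than the median of -0.64 over all genes tested.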

How the results depend on the processing

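Of the alternatives without a left-out sample, 138 of 150 values of counts stayed within 1.5 times the main count, and so did 66 of 76 with 1 sample left out. With a -log10 q of at least 5, TSS marks fell to 9 and 15 P450 genes in 232P replicates 1 and 2 and to 7 in all samples, gene-body marks to 11, 16 and 9, and 3 genes (CYP3A5, CYP4F3 and CYP4F11) lost the mark in 232P. The 2.5 kb window and the gene record's start each gave 0 lost in 232P. Leaving out 1 sample gave 0 to 2 lost and 0 to 2 gained in 231K (CYP11B1 lost, and CYP46A1 among those gained, without WT replicate 2, and CYP2C18 and CYP4F3 lost without 231K replicate 2). In 232P it gave 2 to 3 lost and 0 to 1 gained (without WT replicate 2). With no filter, limma called 3 genes in 231K, 8 in 232P and 5 over both lines, none of them a P450 gene. Over the left-out samples, calls in 232P ran from 0 to 261 for all genes and from 0 to 1 for P450 genes, the highest without 232P replicate 2. CYP26A1 in 232P had 0 with a -log10 q of at least 5. With the gene record's start, CYP2C19 had 0 in 232P and 0.40 over both lines. The cause of these changes was not tested. The replicate block left 0 genes called in each comparison and changed no call. The lists give no read depth, so no counting interval could be given.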
